A study of Homo sapiens with 6 samples.

Results

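The comparison of DROSHA knockdown with control cells rests on 4 of the 6 expression arrays of a study of MDA-MB-231, a human basal-like breast cancer cell line. Its members are all probes that stood above background, with a detection p below 0.05, on at least 2 of the 6 arrays. That left 22091 of 47319 probes, which cover 12083 of the 20045 genes that the array names. The 2 DROSHA-sh arrays come from a line that stably expresses a small hairpin RNA against DROSHA, and the 2 control arrays come from cells labelled control. The other 2 arrays, of a line with a hairpin against DICER1, entered the fit only to share the estimate of the spread and are quoted where their level bears on a result. The labels call all the cells untreated and give the same medium with serum for each line. They name 1 hairpin line per gene, and do not state whether the control cells carried a hairpin or whether the 2 arrays of a line came from separate cultures, so that p-values measure the spread between arrays, which may be technical. The study asked which mRNAs change their level once cells can no longer make miRNAs at the usual rate.

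MicroRNAs are short RNAs that lower the translation and stability of mRNAs with matching sites. They start as hairpins within long primary transcripts, and in the nucleus DROSHA, an RNase III enzyme, cuts the hairpin out together with its partner DGCR8 in a complex called the Microprocessor. Exportin 5 carries the hairpin to the cytoplasm, where DICER1 trims it to the mature miRNA that an Argonaute protein holds. Cells with less DROSHA are known to keep more uncut primary transcript and to make less mature miRNA. Mature miRNAs are too short to be read by this kind of array and were not measured.

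Between 42.0% and 44.4% of probes were above background on an array, and values are given below as log2 intensity after background correction and quantile normalization. The arrays of a group did not differ from each other to the same degree. The SD of the log2 difference over probes was 0.78 between the 2 control arrays and 0.31 between the 2 DROSHA-sh arrays. Control 1 was at least 2-fold above control 2 at 2113 probes and at least 2-fold below it at 2114. The DROSHA-sh arrays lay that far apart at 187. Results are therefore given with each array's value. All arrays share 1 chip in the labels, and the array letters run with the group, so position on the chip and group cannot be told apart. Of 12 MDA-MB-231 markers 11 were above background on all 6 arrays, among them VIM, the mesenchymal filament vimentin, and CAV1, caveolin. SPARC, a matrix protein, was above background on 0. Of 12 luminal breast markers 6 were above background on all 6 arrays, namely ERBB2, XBP1, KRT8, KRT18, EPCAM and AGR2. ESR1, PGR, CDH1 and TFF1 of that list were above background on 0 arrays. Of 6 leukocyte markers on the array 3 were above background on all 6 arrays, namely CD14, CD68 and LYZ. The other 3, PTPRC, CD3E and HBA1, were above it on 0. The summed log2 level of the 12 luminal markers was 91.2 to 94.2 on the control arrays and 94.5 to 95 on the DROSHA-sh arrays, and the part of such markers in the results was not tested.

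The miRNAs whose gene probes were 2-fold or more above control in DROSHA-sh cells are shown first, because their primary transcripts are the known substrates of the enzyme that was lowered. The mature sequences are those of RefSeq for GRCh38.p14, written from the 5′ end with the seed, bases 2 to 8, in capitals. The seed is the stretch that pairs with a target mRNA. MIRLET7F1, whose probe was not higher, is included because its hairpin lies between those of MIRLET7A1 and MIRLET7D.
miR-21-5p: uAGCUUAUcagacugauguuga
let-7a-5p: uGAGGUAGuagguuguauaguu
let-7d-5p: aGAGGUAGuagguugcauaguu
let-7f-5p: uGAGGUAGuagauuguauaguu
let-7i-5p: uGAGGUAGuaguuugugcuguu
miR-181a-5p: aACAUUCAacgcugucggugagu
miR-181b-5p: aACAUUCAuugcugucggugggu
miR-24-3p: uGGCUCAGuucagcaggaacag
miR-221-3p: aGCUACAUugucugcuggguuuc
miR-185-5p: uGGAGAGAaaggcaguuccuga
miR-29b-3p: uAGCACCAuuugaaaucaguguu
The 4 let-7 miRNAs share the seed GAGGUAG and the 2 miR-181 miRNAs share ACAUUCA, while each of the other seeds occurs once here. The hairpin of MIR21 lies at chr17:59841266-59841337 on the plus strand. It is printed with the mature arm, which DROSHA and DICER1 free from it, in capitals.
MIR21 hairpin: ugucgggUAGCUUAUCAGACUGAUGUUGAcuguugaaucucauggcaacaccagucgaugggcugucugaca

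The targeted gene was lower by both of its probes. The brighter DROSHA probe (ILMN_1790410) read 11.58 and 10.91 on the control arrays and 9.0 and 8.98 on the DROSHA-sh arrays. Both DROSHA-sh arrays lay below both control arrays and below the DICER1-sh arrays, at 11.40 and 10.81. The difference of -2.25 on the log2 scale (standard error 0.35, 95% confidence interval -3.08 to -1.43) is 4.77-fold lower, and the adjusted p in limma was 0.736. The dimmer probe (ILMN_2152095) went from 8.33 and 7.28 to 5.75 and 5.76, 4.15-fold lower, with the DROSHA-sh values close to the lowest detected level of the arrays, 5.63 to 5.75. These were the 2 lowest changes of all 22091 probes, and without control 1 the brighter probe still stood at -1.92. In bulk RNA, fewer cells with the transcript and less transcript per cell cannot be told apart.

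DGCR8, the RNA-binding partner of DROSHA, was higher. Its probe (ILMN_1694223) read 8.58 and 8.87 in control and 9.86 and 9.88 in DROSHA-sh, so the groups did not overlap, and the DICER1-sh arrays stood at 9.02 and 8.46. The difference was 1.15 with a standard error of 0.30, 2.22-fold, with an adjusted p of 0.856 in limma. The Microprocessor is known to cut hairpins in the DGCR8 mRNA itself. DICER1 stood at 0.36 (standard error 0.41), and its groups overlapped (10.55 and 9.36 against 10.36 and 10.27). Of 16 tested genes of the Microprocessor and its cofactors, DGCR8 was the 1 gene with both DROSHA-sh arrays above both control arrays. A further 5 lay below, DROSHA included, with TARDBP at -0.50 and SAFB at -0.39. Over all genes 20.4% lay above and 18.8% below both control arrays. The median of the list was -0.32, and it was -0.63 against control 1 and -0.02 against control 2. Among 19 tested genes of export, dicing and silencing, 4 lay above and 4 below both control arrays, shares near those over all genes, with a median of -0.12. TNRC6A and TNRC6B, GW182 proteins that bind Argonaute, stood at 0.58 and 0.43, and TUT4, which adds uridines to the precursor of let-7, at -0.48.

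No probe passed the test. In limma 0 of 22091 probes (0%) had an adjusted p below 0.05, the smallest adjusted p was 0.0986 and 622 (2.82%) had an unadjusted p below 0.05. The members are therefore described by their values on each array. Among all probes a difference of at least 2-fold was seen upward in DROSHA-sh for 198 (0.896%) and downward for 302 (1.37%). Both DROSHA-sh arrays lay above both control arrays at 4225 probes (19.1%) and below both at 4010 (18.2%).

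Probes named for miRNA genes were among the highest differences. MIR21, whose miRNA is plentiful in many tumours, read 5.19 and 4.84 in control and 8.40 and 8.67 in DROSHA-sh. The 2 DROSHA-sh arrays were the ones on which it exceeded background, and its signal was at least 7.20-fold higher. The bound takes the brighter group's mean against the lowest detected level of the control arrays, which stands in for a probe that was not above background there. The fitted difference was 3.52 with a standard error of 0.28 and an adjusted p of 0.0986 in limma, with the control side not above background.

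MIRLET7A1, the gene of a let-7 copy, read 5.25 and 4.79 in control and 7.88 and 7.41 in DROSHA-sh, at least 3.89-fold higher. MIR181B1 went from 4.90 and 4.82 to 7.17 and 7.16, at least 2.78-fold higher. MIR24-1 went from 4.79 and 4.99 to 7.04 and 6.68, at least 2.26-fold higher. None of these 3 was above background on a control array, and all 3 were above it on both DROSHA-sh arrays. MIR221 and MIR185 were above background on all 6 arrays, so that their differences are measured on both sides. MIR221 read 8.15 and 7.54 in control and 9.66 and 9.59 in DROSHA-sh, a difference of 1.78 with a standard error of 0.33. MIR185 read 6.16 and 6.11 in control and 7.53 on both DROSHA-sh arrays, a difference of 1.40 with a standard error of 0.28. In both genes the groups were far apart beside the gap within each group.

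None of the remaining 4 miRNA genes of at least 2-fold was above background on both control arrays. MIRLET7D went from 5.86 and 5.21 to 6.93 and 7.07, a difference of 1.46. MIRLET7I went from 4.92 and 4.89 to 6.31 and 5.87, MIR29B1 from 4.70 and 5.04 to 5.68 and 6.20, and MIR181A1 from 5.21 and 5.04 to 6.79 and 5.57. These last 3 were above background on no control array, and MIR29B1 and MIR181A1 on 1 DROSHA-sh array each, which leaves bounds of at least 1.32-fold, 1.19-fold and 1.41-fold. Of the 10 genes, 8 lay on both DROSHA-sh arrays above all 4 other arrays. That count follows largely from the choice, since the 10 were taken for being higher than control. MIR21, MIRLET7A1, MIR181B1, MIR24-1 and MIRLET7I moreover passed the detection filter through the DROSHA-sh arrays alone. The plot of miRNA gene probes by array shows the same 10 genes.

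**Figure D1:**
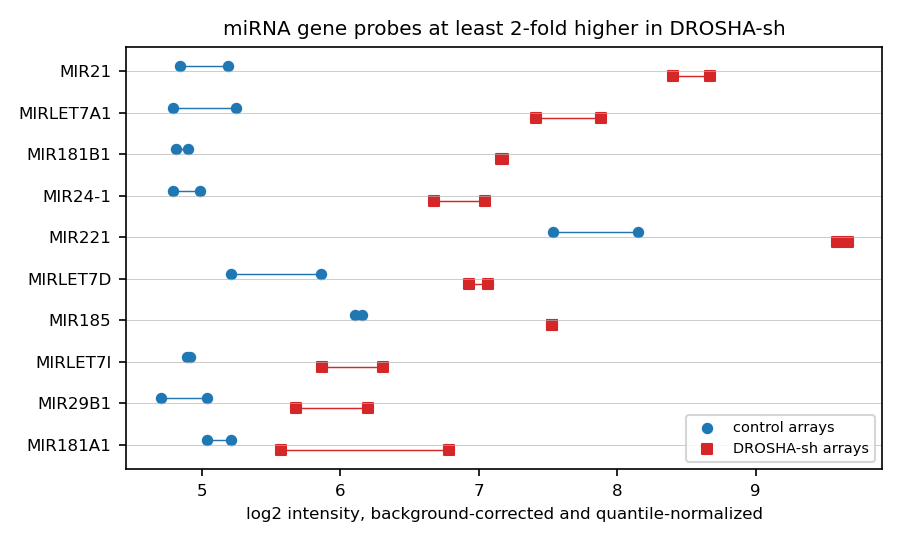
Log2 intensity (horizontal axis) of the 10 miRNA gene probes at least 2-fold higher in DROSHA-sh, with circles for the 2 control arrays, squares for the 2 DROSHA-sh arrays and a line joining the arrays of a group. The groups are apart for all 10, MIR21 by 3.21 at the nearest arrays, and MIR181A1 shows the widest gap between its DROSHA-sh arrays, 6.79 against 5.57. These 10 are the high ones, so that their groups are apart follows largely from that choice.

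The array carries probes for 560 miRNA genes, of which 65 passed the detection filter. At least 2-fold higher stood 10 of them (15.4%, against 0.896% of all probes) and 0 stood at least 2-fold lower. Both DROSHA-sh arrays lay above both control arrays for 24 (36.9%, against 19.1% of all probes), below both for 4, and the groups overlapped for 37. The filter kept 7 of the 65 only through the DROSHA-sh arrays, so these shares include genes that had to be higher. MIR21, MIRLET7A1, MIR181B1, MIR24-1 and MIRLET7I of the 10 are among those 7, so the contrast with all probes is no measure of miRNA genes as a class. Of the 19 genes above background on all 6 arrays, 2 were at least 2-fold higher, 8 lay above both control arrays and 0 below both. Over all 16563 probes above background on all 6 arrays, 147 were at least 2-fold higher. The groups did not overlap, in either direction, at 6404 of those probes. The other 55 genes lay between -0.98 for MIR614 and 0.78 for MIR130A, and 25 of the 65 were within 0.2 of 0. In DICER1-sh cells, measured against the same control arrays, 1 of the 65 was at least 2-fold higher. The 7 genes kept only through the DROSHA-sh arrays were above background on no DICER1-sh array. The 2 counts are therefore no measure of a difference between the knockdowns.

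The hairpins of some miRNA genes lie side by side. MIRLET7A1, MIRLET7F1 and MIRLET7D lie on the plus strand of chromosome 9, with hairpins at chr9:94175957-94176036, chr9:94176347-94176433 and chr9:94178834-94178920. Their differences were 2.63, -0.03 and 1.46, and MIRLET7F1 overlapped between the groups, with 5.79 and 6.55 in control and 6.34 and 5.94 in DROSHA-sh. MIR24-1 lies at chr9:95086021-95086088 in a cluster with MIR23B and MIR27B. Those neighbours were above background on no array, with MIR23B at 4.65 and 4.85 in control and 5.12 and 5.61 in DROSHA-sh. MIR222, the neighbour of MIR221 at chrX:45746157-45746266, was also above background on no array (4.96 and 5.03 against 5.33 and 5.16). Both members of the MIR181B1 and MIR181A1 pair on the minus strand of chromosome 1 were among the 10 genes. A probe reads a short stretch of the transcript, and the levels of different probes cannot be set against each other.

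Several transcripts that hold miRNA hairpins within their RefSeq span were among the highest of all. MIR3142HG, the noncoding host of MIR146A, read 6.55 and 5.48 in control and 9.02 and 9.55 in DROSHA-sh, a difference of 3.27 with a standard error of 0.44, 9.65-fold. MIR100HG, the noncoding host of MIR100, MIRLET7A2 and MIR125B1, read 9.93 and 9.41 in control and 11.66 and 11.85 in DROSHA-sh, a difference of 2.09 with a standard error of 0.29, 4.25-fold. MIR99AHG, the host of MIR99A and MIRLET7C, went from 5.16 and 5.52 to 6.58 and 6.90 and was above background on no control array, at least 2.07-fold higher. In MIR3142HG and MIR100HG the lower DROSHA-sh array stood more than 2-fold above the higher control array. MIR3142HG was above background on 1 of the 2 control arrays. Of the miRNA probes inside them, MIR100 stood at 0.50 and was above background on no control array. The probes of MIR146A, MIRLET7A2, MIR125B1, MIR99A and MIRLET7C were below the detection filter. Their changes therefore cannot be sized against those of the hosts.

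Protein-coding hosts were mixed. AOPEP, an aminopeptidase gene whose span holds MIR23B, MIR27B and MIR24-1, went from 7.71 and 8.71 to 9.55 and 9.42, a difference of 1.28 with a standard error of 0.42. MIR29B2CHG, a noncoding host, went from 6.45 and 6.35 to 7.45 on both arrays, a difference of 1.05. TANGO2, whose span holds MIR185, stood at 0.76 with a standard error of 0.47. VMP1, an autophagy gene whose span holds MIR21, read 12.10 and 11.69 in control and 11.77 and 11.83 in DROSHA-sh. Its difference was -0.10 with a standard error of 0.31, beside at least 7.20-fold for the MIR21 probe. MIR29B2CHG, TANGO2 and VMP1 were chosen after their values were seen. Among all 524 tested genes whose span holds a miRNA gene on the same strand, 13 were at least 2-fold higher (2.48%, against 1.12% of all 12083 named genes). A further 3 were at least 2-fold lower, 121 lay above both control arrays (23.1%, against 20.4% of all genes), and the median change was 0.00.

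The strictest description of agreement, chosen after seeing the data, asks that a probe differ at least 2-fold in each of the 4 pairs of a DROSHA-sh with a control array. On the higher side 39 probes (0.177%) met it, and on the lower side 3 (0.0136%). The 39 include 7 miRNA gene probes, the host transcripts MIR3142HG, MIR100HG and MIR99AHG, and 8 probes without a gene symbol. Of the 39, 9 were above background on no control array, so that their size there is read against values within the background. Of the 3 lower ones, 2 are the DROSHA probes and 1 has no symbol (ILMN_1749304, 7.82 and 6.67 in control, 5.6 and 5.17 in DROSHA-sh). No other named gene was lower by that rule. The brightest of the unnamed higher probes (ILMN_2390310) read 10.80 and 10.37 in control and 13.19 and 13.17 in DROSHA-sh, a difference of 2.59.

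The control arrays weighed unequally in the lower changes. The 302 probes at least 2-fold lower had a median difference of -1.99 against control 1 and -0.33 against control 2, and for 213 of them the groups were apart. The 198 probes at least 2-fold higher had medians of 1.70 and 0.76, and for 195 of them the groups were apart. Against each control array taken alone the mean of the DROSHA-sh arrays was at least 2-fold away for 53 of the 198 and for 16 of the 302. Without control 1 the counts were 150 higher and 90 lower, and without control 2 they were 1936 and 1994. Of the 302, 83 were above background on neither DROSHA-sh array, and of the 198, 27 on neither control array. Control 1 correlated more with DICER1-sh 2 (Pearson's r of 0.98 over probes) than with control 2 (0.95), and control 2 stood nearer to both DROSHA-sh arrays (0.99 each). The plot of DROSHA-sh against each control array shows these spreads.

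**Figure D2:**
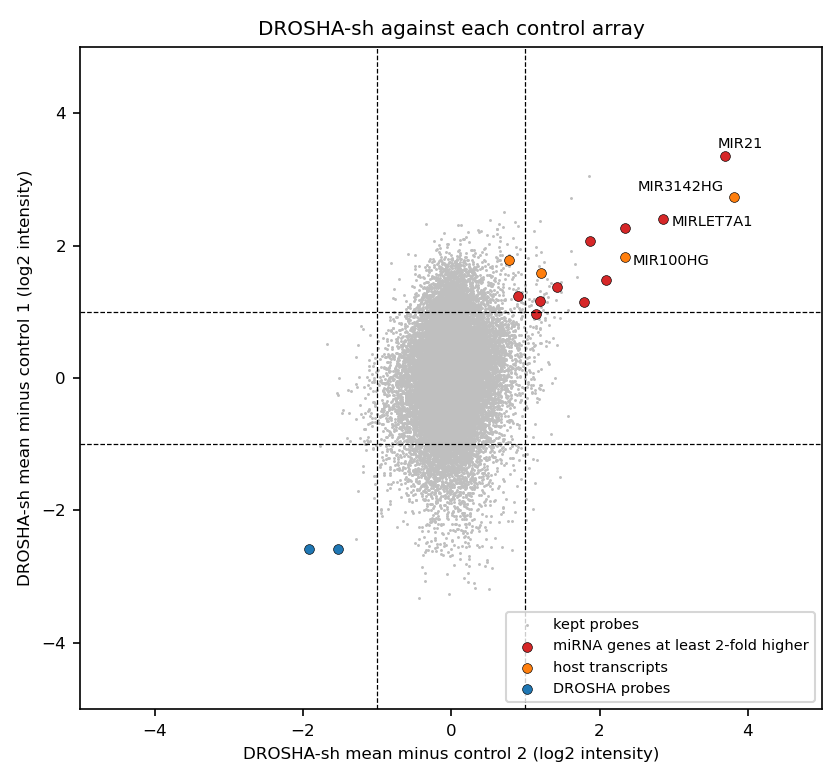
Each of the 22091 probes by the DROSHA-sh mean minus control 2 (horizontal axis, log2) and minus control 1 (vertical axis, log2), with dashed lines at 2-fold. The cloud is longer along the control 1 axis. Coloured are the 10 miRNA gene probes at least 2-fold higher, the hosts MIR100HG, MIR3142HG, MIR99AHG and AOPEP, and the DROSHA probes. These miRNA genes and hosts are the high ones, so their place away from the cloud follows from that choice.

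Genes with several probes were also read for direction. Their probes come from the same arrays and share any deviation of a control array, so they are no independent check. Over 3345 genes with more than 1 measured probe, 3138 of 4301 further probes (73.0%) had the sign of the gene's brightest probe. Where the brightest was at least 2-fold higher, 26 of 27 further probes were above 0 and 12 were at least 2-fold higher too. Where it was at least 2-fold lower, 41 of 50 were below 0 and 12 were at least 2-fold lower.

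Coding genes among the highest came from several classes. ATP5MK, a small membrane subunit of the ATP synthase, went from 5.69 and 6.89 to 8.67 and 8.84, a difference of 2.46 with a standard error of 0.45. KLRC2, a lectin-like receptor known from natural killer cells, went from 5.91 and 5.96 to 7.65 and 7.62, a difference of 1.70 with a standard error of 0.26. APCDD1L went from 7.60 and 7.42 to 9.17 and 9.08, a difference of 1.61 with a standard error of 0.27. The latter 2 had gaps within a group of at most 0.18, while the control arrays of ATP5MK lay 1.20 apart. KLRC3, a close relative of KLRC2, went from 5.64 and 5.76 to 6.93 and 6.97, and the signal of such near copies at a probe cannot be told apart. SPINK1, a trypsin inhibitor, stood at 1.78 and DEFB103A, a defensin, at 2.16, both from control values near background on control 1 (5.63 and 5.38). On the DICER1-sh arrays SPINK1 read 7.23 and 6.59 and DEFB103A 8.02 and 7.18. All 3 probes of COXFA4L3, a mitochondrial protein, were higher, at 1.67, 1.44 and 1.27. At its probes SPANXD stood at 1.61, 1.60 and 1.44, with control 1 below control 2 by 1.79 at the first of them. SPANXD has near-identical copies that its probes may also read.

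The other named genes of the 39 probes had various roles. EGR1, an immediate early transcription factor, read 8.10 and 8.14 in control and 9.39 and 9.25 in DROSHA-sh, a difference of 1.19 with a standard error of 0.29. CXCL16, a chemokine, went from 6.88 and 6.69 to 8.11 and 8.23. ZC3H12A, an RNase that degrades inflammatory mRNAs, went from 6.01 and 6.09 to 7.33 and 7.49. On the DICER1-sh arrays ZC3H12A read 7.56 and 6.76, CXCL16 7.68 and 7.06 and EGR1 8.48 and 7.97. In these 3 genes the control arrays lay within 0.19 of each other. PLAUR, the urokinase receptor, was higher by 1.19, 0.99 and 0.87 at its 3 probes, and the first read 9.10 on both control arrays and 10.25 and 10.32 on the DROSHA-sh arrays. PLAU, urokinase itself and not among the 39, stood at 0.70, from 12.73 and 12.61 to 13.41 and 13.34. SPHK1, which makes sphingosine 1-phosphate, stood at 1.51, and SCG5, a chaperone of secretory granules, at 1.55. MANCR, a long noncoding RNA, went from 9.06 and 9.13 to 10.14 and 10.37. The remaining 7, SAA4, SMIM10L2B, ZNF688, VIPR1, RPP25L, PARVB and OTUB2, stood between 1.06 and 1.39, though RPP25L stood at 0.87 by its brightest probe and PARVB at 0.20 by its other probe. These 7 and SPHK1, SCG5, CXCL16, ZC3H12A, KLRC3 and MANCR are named as members of the 39 and not by the rule for named genes.

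**Figure D3:**
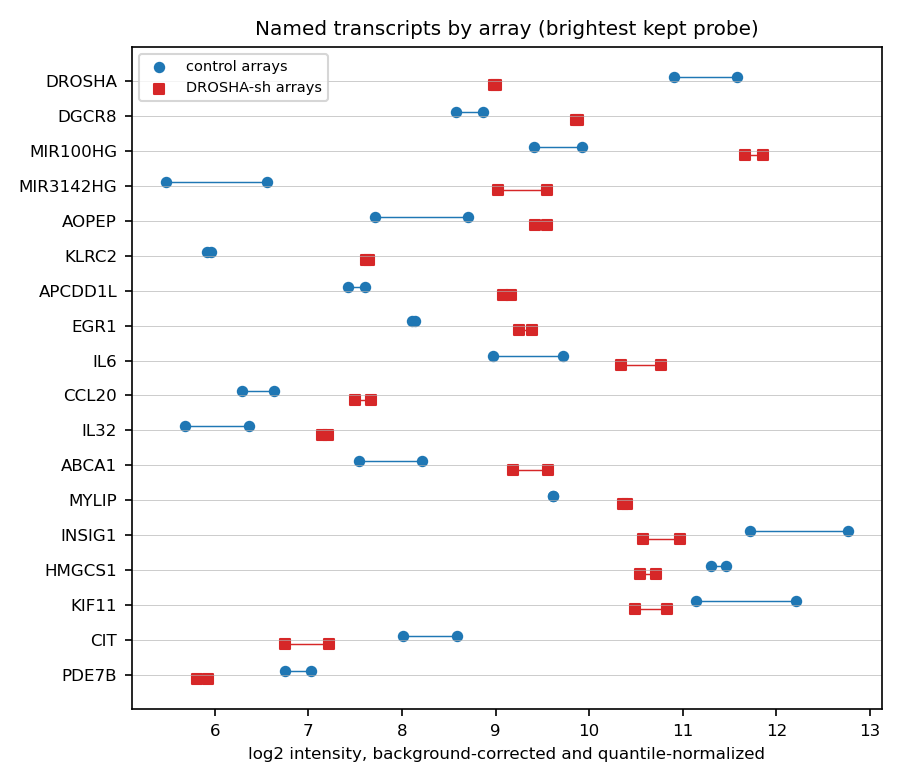
Log2 intensity (horizontal axis) of the brightest probe of 18 named transcripts, with circles for the 2 control arrays and squares for the 2 DROSHA-sh arrays, a line joining the arrays of a group. DROSHA stands at 11.58 and 10.91 in control and 9.0 and 8.98 in DROSHA-sh. The 2 groups are apart in every transcript drawn, which follows from the choice of transcripts. The wider gaps within a group are mostly those of the control arrays.

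The lower end held fewer genes that stood far from both control arrays. CIT, a kinase of the cleavage furrow, read 8.58 and 8.02 in control and 6.75 and 7.22 in DROSHA-sh, a difference of -1.31 with a standard error of 0.32. PDE7B, a phosphodiesterase that degrades cyclic AMP, went from 7.03 and 6.75 to 5.81 and 5.93, with the DICER1-sh arrays at 7.09 and 7.14. PARD6B, a cell polarity protein, went from 6.44 and 6.95 to 5.43 and 5.65 and was above background on neither DROSHA-sh array, at least 1.94-fold lower. SUDS3, a subunit of the SIN3 corepressor, went from 6.72 and 6.79 to 5.80 and 5.48. It was low on the DICER1-sh arrays too, at 5.85 and 5.92, where CIT read 8.18 and 8.27 and PARD6B 6.48 and 6.51. In each of these 4 genes both control arrays lay above both DROSHA-sh arrays. TTLL11, a tubulin glutamylase, stood at -1.40 by 1 probe and -0.53 by its brighter one, and PANK1, a kinase of coenzyme A synthesis and host of MIR107, at -1.48 and -0.68. For TRMT5, a tRNA methyltransferase, the probe at -1.50 had a brighter partner at -0.07.

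Other genes at the lower end rested on control 1. GNG12, a G protein subunit, read 12.45 and 10.05 in control and 9.78 and 9.90 in DROSHA-sh, a difference of -1.41 with a standard error of 1.04. TNFSF18, a TNF family ligand, read 9.59 and 7.23 in control and 6.85 and 7.10 in DROSHA-sh. Both stood within 0.4 of control 2. The lowest probes of DNAJB14, GMCL1, USP33, MAT2B, ZDHHC13 and STARD4 had the same form, with control 1 above control 2 by 1.53 to 2.27.

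Inflammatory products of NF-kB signalling were mostly higher. NF-kB is a family of transcription factors released by the loss of their inhibitors, and MDA-MB-231 cells are known for its steady activity. IL6, an inflammatory cytokine, read 8.97 and 9.72 in control and 10.34 and 10.77 in DROSHA-sh, a difference of 1.21 with a standard error of 0.36. CCL20, a chemokine, went from 6.29 and 6.63 to 7.50 and 7.67, and IL32, a cytokine, from 5.68 and 6.36 to 7.21 and 7.14. The groups did not overlap in any of the 3. LCN2, an iron-carrier binding protein, stood at 1.40 with control arrays at 8.19 and 9.74. SOD2, the mitochondrial superoxide dismutase, stood at 0.98. Of 22 tested members 19 were above 0, as were 51.3% of all genes, and 5 were at least 2-fold higher, as were 1.12% of all genes. That count was 11 against control 1 alone and 1 against control 2 alone. At least 2-fold lower stood 0, against 0.943% of all genes. Both DROSHA-sh arrays lay above both control arrays for 14 of the 22 and below for 1, against 20.4% and 18.8% of all genes. The median was 0.65, and it was 0.88 against control 1 and 0.47 against control 2, beside 0.02 over all genes. In DICER1-sh cells, against the same control arrays, the median of the list was 0.15.

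Differences were smaller among the regulators of the same pathway. Of 25 tested subunits and feedback inhibitors 11 lay above and 3 below both control arrays, against 20.4% and 18.8% of all genes, with a median of 0.19. RELB, a subunit, stood at 1.06, BCL3, a nuclear partner, at 0.90 and IKBKE, a kinase, at 0.85. RELB was also high on DICER1-sh 1, at 8.94 beside 8.72 and 8.69 on the DROSHA-sh arrays. NFKBIA, the inhibitor IkB-alpha, read 11.99 on both control arrays and 12.22 and 12.32 in DROSHA-sh, a difference of 0.28. TNFAIP3, a deubiquitinase that ends the signal, stood at 0.39.

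Genes of cholesterol handling differed in both directions. SREBP transcription factors switch on sterol synthesis when cells are short of sterol, and LXR receptors switch on sterol export when it is plentiful. ABCA1, the sterol exporter, went from 8.22 and 7.54 to 9.19 and 9.56, a difference of 1.49 with a standard error of 0.34. MYLIP, the ligase that removes the LDL receptor, went from 9.61 and 9.62 to 10.36 and 10.41, a difference of 0.77. Both of these known LXR targets lay above both control arrays. INSIG1, which holds SREBP back and is itself an SREBP target, went from 12.76 and 11.72 to 10.58 and 10.97, a difference of -1.47, with a further probe at -0.75. HMGCS1, an early enzyme of the synthesis, went from 11.47 and 11.30 to 10.54 and 10.71, a difference of -0.76. FASN, the fatty acid synthase, went from 14.14 and 13.01 to 12.38 and 12.73. These 3 lay below both control arrays, and the 3 probes of MSMO1, a demethylase of sterol synthesis, disagreed at -0.78, -1.23 and 0.45. Without control 1 INSIG1 stood at -0.94 and FASN at -0.45. The SREBP genes SREBF1 and SREBF2 were not lower. SREBF1 stood at 0.20 with overlapping groups, and SREBF2 at 0.67, above both control arrays. Over the 27 tested members 5 lay above and 9 below both control arrays, against 20.4% and 18.8% of all genes, and the median was -0.05. FASN, SREBF1 and SREBF2 were chosen after their values were seen.

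Genes of DNA replication and mitosis were mostly lower by small amounts. Of 37 tested replication genes 22 lay below both control arrays and 1 above, and of 38 mitotic genes 21 below and 2 above, against 18.8% and 20.4% of all genes. The medians were -0.30 and -0.39. Against control 2 alone they were -0.20 and -0.15, and against control 1 alone -0.38 and -0.59. KIF11, a spindle motor, went from 12.21 and 11.14 to 10.49 and 10.83. CCNA2, the cyclin of S phase and G2, went from 13.08 and 12.58 to 11.99 and 12.22. UHRF1, which keeps DNA methylation at replication, went from 13.65 and 13.06 to 12.64 and 12.62. CDC25A, a phosphatase that activates cyclin-dependent kinases, stood at 0.90 by its brighter probe and at 0.34 by the other, whose groups overlapped. CDKN1A, the CDK inhibitor p21, went from 11.05 and 11.12 to 12.13 and 12.04, a difference of 1.00 with a standard error of 0.31.

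The size of the median followed the control array it was read against in several lists. The Microprocessor list above was among them, and 4 more are given here. Replication-dependent histones, whose mRNAs normally lack a poly(A) tail, had a median of 0.45 over 32 tested members, which was 0.94 against control 1 and 0.02 against control 2. Small noncoding RNAs stood at 0.39 over 33 members, 0.78 against control 1 and 0.08 against control 2. Nuclear-encoded subunits of oxidative phosphorylation stood at 0.35 over 40 members, 0.72 and -0.09. Cytosolic ribosomal proteins stood at 0.15 over 49 members, 0.39 and -0.04. Control 1 was below control 2 by a median of 0.95 for the histones. A few members were higher against both arrays, such as the histone H2BC5 (8.80 and 9.63 in control, 10.59 and 10.95 in DROSHA-sh) and RNU4ATAC, the U4atac RNA of the minor spliceosome (6.56 and 7.15 against 7.97 and 7.87). H1-2, a linker histone, went from 9.44 and 10.42 to 11.13 and 11.26. The plot of list medians sets these lists beside the others.

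**Figure D4:**
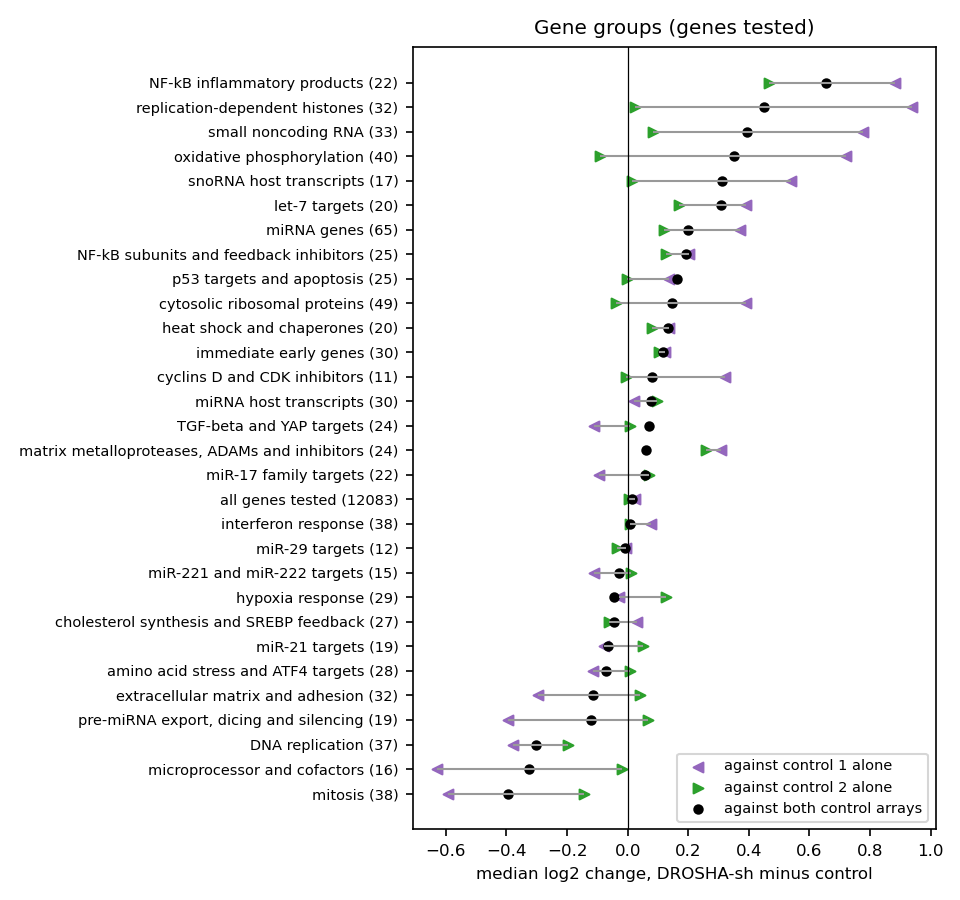
Median log2 change of each gene list (horizontal axis) in DROSHA-sh against both control arrays (circle), control 1 alone (left-pointing triangle) and control 2 alone (right-pointing triangle), with the number of tested genes in brackets. The NF-kB inflammatory products lie to the right of 0 against each control array (0.88 and 0.47) and the replication and mitosis lists to the left, while the histones, at 0.94 and 0.02, depend on the array.

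Published targets were read by list, beside the 20.4% of all genes above and 18.8% below both control arrays. Of 20 tested let-7 targets 10 lay above and 4 below both control arrays, with a median of 0.31, which was 0.39 against control 1 and 0.17 against control 2. The highest were IL6 and CDC25A, which the NF-kB and replication lists also hold, and CCND2, a D-type cyclin, at 0.66 by the brighter of its probes. E2F2, a transcription factor of the cell cycle, stood at -0.61. The classical targets HMGA1 and HMGA2, chromatin proteins, stood at 0.29 and 0.33 by their brighter probes. Of 19 miR-21 targets 7 lay above and 5 below, with a median of -0.07. TGFBI, a matrix protein, stood at 0.92 and SPRY1, a brake on growth factor signalling, at -0.80, and PDCD4, a translation inhibitor, at -0.01. Of 15 targets of miR-221 and miR-222 2 lay above and 2 below, with a median of -0.03. CDKN1B, the CDK inhibitor p27 and a known target of that pair, stood at -0.23. HMGA1, HMGA2, PDCD4 and CDKN1B are named as textbook targets and not by the rule. Of 22 targets of the miR-17 family 7 lay above and 3 below, with CDKN1A and the stress ligands MICA and ULBP2, which activate natural killer cells, at 1.00, 0.93 and 0.97. Of 12 miR-29 targets 2 lay above and 2 below, COL5A1, a collagen, at 0.67 and LAMC1, a laminin, at -0.62 among them.

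Proteases, immediate early genes and interferon response genes were set beside the same shares of all genes, 20.4% above and 18.8% below. Of 24 tested metalloproteases, ADAMs, urokinase components and inhibitors 9 lay above and 4 below both control arrays. ADAM19, a shedding protease, stood at 1.44 with control arrays at 8.86 and 9.88. Of 30 immediate early genes 11 lay above and 3 below, with a median of 0.12, and FOSB, a subunit of AP-1, went from 6.08 on both control arrays to 6.90 and 6.93. Of 38 interferon response genes 10 lay above and 6 below, close to the shares over all genes, with a median of 0.01. IFI27 stood at 1.29 while IFIT2, OAS2 and HERC5, also interferon-induced, stood at -0.73, -0.66 and -0.68.

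The list of amino acid stress and ATF4 targets differed in both directions. Of its 28 tested members 9 lay above and 10 below both control arrays, against 20.4% and 18.8% of all genes. ASNS, the asparagine synthetase, went from 13.70 and 13.37 to 12.84 and 12.91, a difference of -0.66 with a standard error of 0.28. CTH, a cysteine-forming enzyme, stood at -0.66, -0.65 and -0.51 at its 3 probes, while PSAT1 and PSPH of the serine pathway stood at -0.65 and, by the brighter of its probes, -0.64. All of these lay below both control arrays except a dimmer PSPH probe at -0.11. SESN2, a stress-induced member, stood at 1.13 with control arrays at 5.36 and 6.83. The other lists had medians between -0.12 and 0.31, with hypoxia genes at -0.04, p53 targets at 0.16, and targets of TGF-beta and YAP at 0.07.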

How the data were processed

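Total RNA was labelled as biotinylated cRNA and hybridised to Illumina BeadChip arrays, per the labels' protocols. The table used holds each probe's mean bead intensity on a linear scale, as the authors deposited it without normalization, per the file headers. Beside it, per the file headers, stands a p-value for detection above background on each array. A second table that the authors deposited holds normalized intensity values and served as an alternative. The submitters' processing notes name GenomeStudio without a version.

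Samples were grouped by the cell label. Intensities were corrected with normexp through the detection p-values (offset 16), quantile-normalized and taken to log2 with neqc (limma 3.58.1, R 4.3.3). No deposited value was on a log2 scale, per the file headers. The 6 arrays were fitted together with lmFit and eBayes (3 residual and 4.09 prior degrees of freedom), and Benjamini-Hochberg adjustment ran over 22091 probes. Every adjusted p comes from limma. The fit was tested on simulated data. Platform annotation gave 30112 of the probes 1 gene symbol, 8 several and 17199 none, and symbols of 30073 were updated through RefSeq (GRCh38.p14). A gene's value is that of its brightest probe unless another is named. Host transcripts were found by RefSeq spans on the same strand.

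The rule for named genes took DROSHA and DICER1, the 15 highest and 15 lowest changes whose groups do not overlap, the 10 smallest p in each direction, up to 4 members per list with the smallest p, and further probes of these genes. Exceptions are stated. The members, the 33 lists and the rule were chosen with earlier results of these data known. Same-numbered control and DROSHA-sh arrays did not deviate together (r = -0.03), so the numbers were not taken to pair the arrays. Other background corrections, normalizations, filters, weights, fits, a replicate block and the omission of single arrays were tried. The number of arrays limits the precision.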

Additional observations from a re-analysis of the deposited data

Results flagged for a closer look

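At 369 of the 22091 probes (1.67%) the DROSHA-sh arrays and the DICER1-sh arrays lay on opposite sides of both control arrays. Of these, 7 belong to genes that the text names or the rule for named genes took, with CYP1B1, given last, not counted. The direct comparison of the knockdowns in limma placed 0 probes below an adjusted p of 0.05, so none of these differences passed a test, and both knockdowns were set against the same control arrays. MIR221 (ILMN_3310326) stood 2.39 higher on the log2 scale in DROSHA-sh than in DICER1-sh, with control at 8.15 and 7.54 and DICER1-sh at 6.99 and 7.49. PMEPA1, a brake on TGF-beta signalling, differed by 1.13 at its brighter probe (ILMN_1734276) and by 0.86 at a further one (ILMN_2309156). A dimmer MSMO1 probe (ILMN_2402499) differed by 0.54, and the dimmer PARVB probe (ILMN_1667592), of a focal adhesion gene, by 0.46. The brighter PARVB probe was above control in both knockdowns, at 1.13 in DROSHA-sh and 0.81 in DICER1-sh. A dim probe of ANGPTL4, a lipoprotein lipase inhibitor (ILMN_1674376), differed by 0.97. PDE7B (ILMN_1806533) differed by -1.25, with control at 7.03 and 6.75, DROSHA-sh at 5.81 and 5.93 and DICER1-sh at 7.09 and 7.14. CYP1B1, a cytochrome P450 (ILMN_1693338), chosen after its values were seen, read 11.38 and 11.41 in control, 12.61 and 12.36 in DROSHA-sh and 10.76 and 11.22 in DICER1-sh, a difference of 1.49.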

How the results depend on the processing

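The count of probes past an adjusted p of 0.05 was 0 under all 16 alternatives, and the smallest adjusted p ranged from 0.0552 with 1 probe per gene to 1. The counts of size moved. Without background correction 53 probes were at least 2-fold higher and 41 lower, 4 miRNA gene probes were at least 2-fold higher, and 9 and 1 probes were higher and lower in all array pairs. With an offset of 50 the counts were 103 and 117, and 19 higher in all pairs. The deposited normalized values gave 570 and 724, and 136 and 90 in all pairs. Median scaling gave 6 and cyclic loess 7 probes lower in all pairs. Without a filter on detection 16868 probes did not overlap. With detection on all 6 arrays 144 were at least 2-fold lower, 2 miRNA gene probes at least 2-fold higher and 24 higher in all pairs. With 1 probe per gene 178 were at least 2-fold lower. Without control 1 and DICER1-sh 2, chosen after seeing the data, 90 were at least 2-fold lower, 16361 did not overlap, and 90 and 39 were higher and lower in all pairs. Leaving out 1 array at a time gave 150 to 1936 probes at least 2-fold higher, 90 to 1994 lower, 12253 to 19242 without overlap, 8 to 14 miRNA gene probes, 73 to 1589 and 38 to 1593 higher and lower in all pairs, and -2.59 to -1.92 for DROSHA. The low ends of both 2-fold counts are without control 1 and the high ends without control 2. The cause was not tested, save that fewer arrays leave fewer pairs to satisfy. With the replicate number as a block 0 probes passed and 296 had an unadjusted p below 0.05, against 622 without it. Of the alternative values of 105 named genes, 1658 kept direction and 1 reversed, the brighter TRMT5 probe at 0.09 with median scaling against -0.07. With 0 probes past the threshold under any setting, the side of the threshold could not change. Genes named for groups that do not overlap could not reverse when 1 array was left out. Kept direction does not mean kept size, as GNG12 ranged from -2.61 to -0.21 over the omissions of 1 array. Dim probes are limited by background, and bounds hold for 1 correction alone.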

Other observations

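Matrix and junction genes, not described above, showed no common direction. Of 32 tested genes of extracellular matrix and adhesion 10 lay above and 10 below both control arrays, against 20.4% and 18.8% of all genes. COL12A1, a fibril-associated collagen, went from 9.76 and 9.62 to 9.0 on both DROSHA-sh arrays, with a difference of -0.69. Its dimmer probe stood at -0.12 with overlapping groups. P4HA2, which hydroxylates collagen, stood at 0.76 at each of its 2 brighter probes. CLDN3, a claudin of tight junctions, went from 6.0 and 6.05 to 5.13 and 5.45 and was above background on neither DROSHA-sh array. SMAD6, an inhibitor of BMP signalling, went from 8.12 and 7.88 to 6.93 and 7.10, with the DICER1-sh arrays at 7.95 and 7.49. LOC730101, an uncharacterised gene, was lower by both probes, at -1.43 and -0.96. ASAP1-IT1, a noncoding RNA, went from 6.12 and 6.26 to 5.16 and 5.07 and stood at 4.97 on both DICER1-sh arrays.

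Probes without a gene symbol were also among those higher in all array pairs. ILMN_1744381 read 10.57 on both control arrays and 11.99 and 11.62 on the DROSHA-sh arrays, and ILMN_1829933 went from 5.81 and 5.82 to 7.06 and 7.08. Such unnamed probes make up 25.8% of those measured.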
